A study of Homo sapiens with 3 samples.

Results

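The untreated state of FaDu cells was described from 2 of the 3 arrays in the study, both labelled untreated. FaDu is an established human cell line, grown from a squamous tumour of the hypopharynx, the lowest part of the throat. The study compared cells given 10 µg/ml of NSC-631570, an extract of greater celandine, during 48 h with cells that received distilled water for the same time. All cultures were grown in medium with fetal calf serum and antibiotics, and total RNA was hybridised to human Affymetrix PrimeView arrays. The array of treated cells was not used. The members were the genes with a value: of 49395 probe sets, 102 were array controls and 44988 others named exactly 1 gene, and these covered 18132 genes. Where a gene had several probe sets, the one brightest on average over the 2 arrays was used; the arrays are called untreated 1 and untreated 2. The labels do not say whether these came from separate cultures, so the spread between them may be technical, and 1 group of 2 arrays allows no test. The gene lists below were chosen with earlier results of these data known. Their counts beside those of all genes therefore describe the lists and test nothing. Paired values below are given in the order untreated 1, untreated 2.

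Stratified squamous epithelium renews itself from a basal layer. Basal cells make the keratins KRT5 and KRT14 and hold to the basement membrane through integrins and hemidesmosomes, and cells leaving that layer switch to other keratins and to proteins of the cornified envelope. Squamous carcinomas of the head and neck keep part of this programme beside the machinery of dividing cells, and many of them also make the keratins of simple epithelia, KRT8 and KRT18.

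Signals are log2 values and ran from 3.06 to 14.95 in untreated 1 and from 3.12 to 14.95 in untreated 2. A gene was called high when its mean lay at or above the 80th percentile of all genes (9.74), low below the 40th percentile (6.25) and middle between them. By these limits 3627 of the 18132 genes were high, 7252 middle and 7253 low. A list with a similar split does not stand out. Probe sets differ in how strongly they bind, so these bands say where a signal lies on the array and not how much RNA there was. The probe sets of a single gene spanned a median of 1.55, and in 1299 genes more than 4, and the highest was used. The 333 olfactory receptor genes, which belong to sensory neurons of the nose, served as a background: 321 were low, with a median of 4.54 and a 95th percentile of 5.99, and 11497 of all genes lay above that percentile. The remaining 12 were middle and reached 8.68, so a middle signal alone does not show that a gene is on. Nor does a high one, since the background probe sets richest in G and C reached a mean of 11.93. Of the 18132 genes, 17190 (94.8%) fell into the same band in both arrays and none was high in one and low in the other. Control probe sets for the hybridisation differed by -0.11 to 0.05 between the arrays. The 11 background probe sets with 15 to 25 G or C bases, whose means began at 4.23, read 0.16 to 0.33 higher in untreated 1. The 12 with 3 to 14 such bases, all under 3.78, differed by -0.07 to 0.09.

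**Figure D1:**
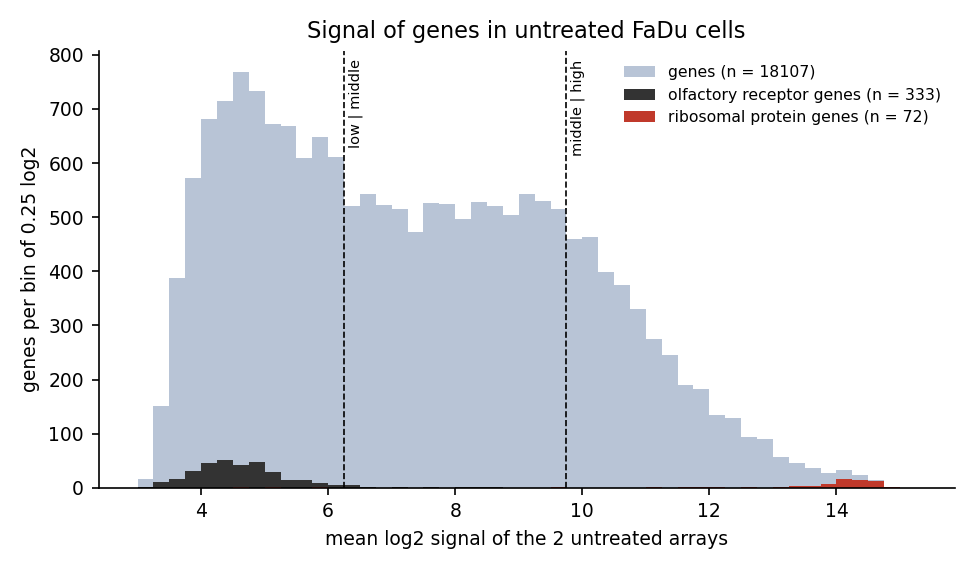
Number of genes (y axis) by mean log2 signal of the 2 untreated arrays (x axis, bins of 0.25), with olfactory receptor and ribosomal protein genes drawn in front; 18107 genes are drawn, without Y-linked genes and XIST. Olfactory receptor genes pile up below the low limit of 6.25, and most ribosomal protein genes lie above 13.

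All 6 epithelial markers were high in both arrays. KRT18 and KRT8, the keratin pair of simple epithelia, read 13.96 and 14.21, and 13.47 and 13.68. KRT5, the type II keratin of basal squamous cells, read 13.21 and 13.39. Its partner KRT14 read 10.74 and 10.35, within the high band. EPCAM, an adhesion protein of epithelial cells, read 12.74 and 12.91. CDH1, the E-cadherin of adherens junctions, read 11.89 and 11.77. The sizes of these 6 gaps lay between 0.12 and 0.39, beside a median of 0.18 and a 95th percentile of 0.65 over the genes past the low limit.

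Of 48 keratin genes, 7 were high, 8 middle and 33 low. The high ones beside the markers were KRT19 (13.21 and 13.29), KRT7 (10.48 and 10.88) and KRT10 (10.49 and 10.82), the first 2 known from simple and glandular epithelia and KRT10 from the layers above the basal one. The 4 lowest keratins, KRT28, KRT12, KRT24 and KRT26, read between 3.47 and 3.88 in both arrays. KRT13, a keratin of mucosal upper layers, read 7.21 and 6.54. KRT4, which pairs with KRT13, read 8.68 and 6.93. It was the only keratin at least 2-fold apart of the 15 past the low limit, beside 1.28% of all genes. Its other probe set differed by 1.91 the same way. KRT6A, KRT16 and KRT17 were not analysed here.

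Transcription factors of squamous and other epithelia were high in 6, middle in 11 and low in 3 of 20 genes. The highest signal was that of ELF3, an epithelial ETS factor, at 11.38 and 10.52. Zinc finger factors of epithelial renewal and differentiation followed, KLF5 at 10.50 and 11.20 and KLF4 at 10.23 and 10.71. SOX15, BNC1 and EHF, also expressed in squamous epithelia, lay between 9.91 and 10.52. SOX2, a factor of squamous progenitors, was middle at 7.04 and 6.57. ZNF750, which promotes terminal differentiation, read 6.52 and 5.95, and GRHL3, a factor of the skin barrier, read 5.04 and 4.80. FOXE1 was the lowest at 4.47 and 4.81. TP63 was not analysed here.

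Genes of late differentiation were mostly low: 20 of 25, with a list median of 5.53. KRT10 was the only high member. The cross-linking enzyme TGM1 read 7.18 and 6.69, and the cornified envelope precursor SPRR1A read 6.56 in both arrays. Filaggrin, FLG, read 4.04 and 3.90, and its relative FLG2 3.54 and 3.27. IVL, the envelope precursor involucrin, read 4.44 and 4.05. SPRR1B differed most, 6.30 and 5.17, but its mean was below the low limit, so its gap was not counted.

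**Figure D2:**
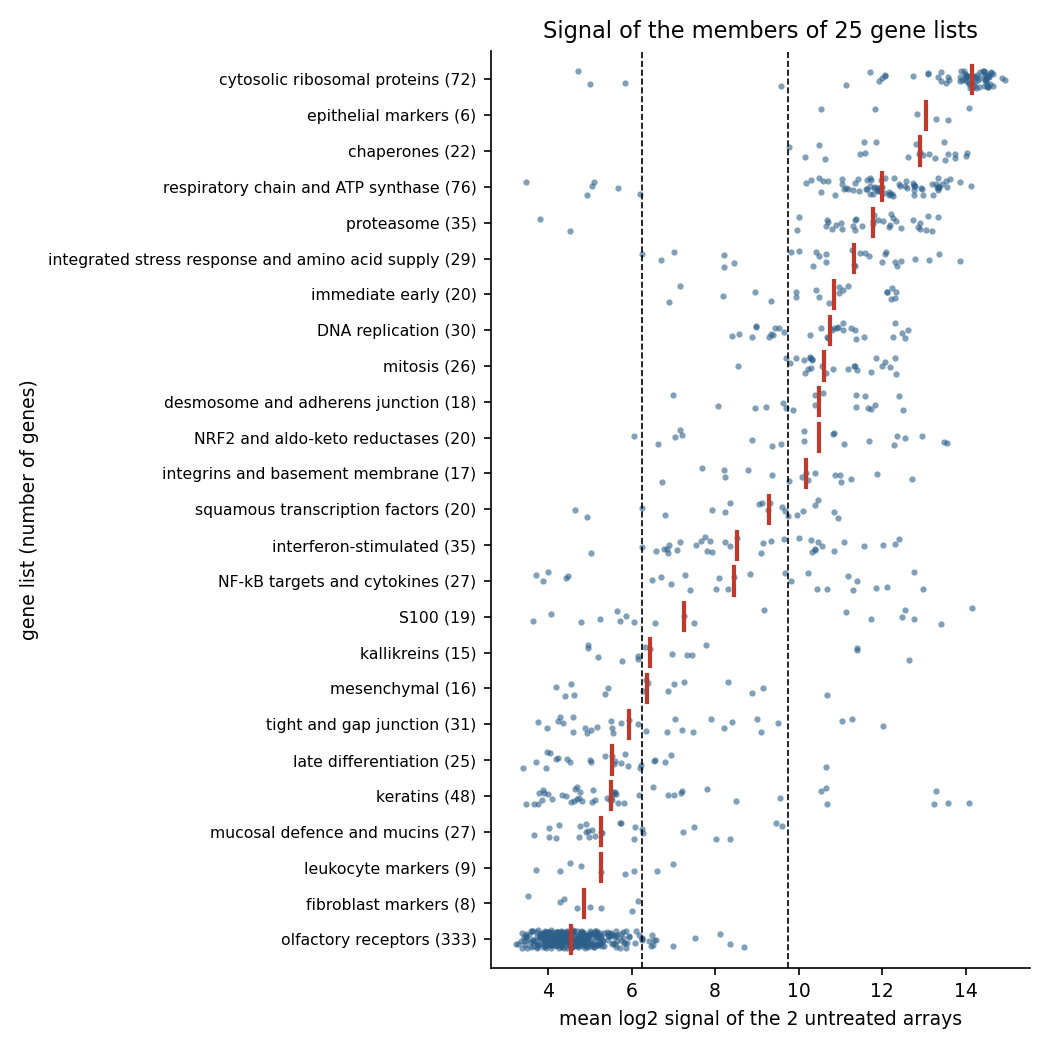
Mean log2 signal of the 2 untreated arrays (x axis) for each member of 25 gene lists (y axis, number of genes in brackets); red bars are list medians and dashed lines the limits of the low and high bands. Ribosomal protein genes have the highest median (14.15) and olfactory receptors the lowest (4.54), with late differentiation genes (5.53) near the low end.

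Desmosome and adherens junction genes were high in 12 and middle in 6 of 18, and none was low. The desmosome plaque protein DSP read 12.46 and 12.51, and CTNNB1, the beta-catenin that links cadherins to the cytoskeleton, read 12.26 and 12.56. CDH3, the P-cadherin of basal cells, read 11.47 and 11.85. DSG2, a desmosomal cadherin found in simple epithelia too, read 11.57 and 11.61. PERP, a desmosome membrane protein, read 11.93 and 11.55. PKP1, the plakophilin of upper layers, was the lowest of the list at 7.43 and 6.54. In tight and gap junctions, 3 of 31 genes were high, 11 middle and 17 low. The high ones were the claudins CLDN7 (11.94 and 12.09) and CLDN1 (11.52 and 11.05) and the scaffold protein TJP1 (11.16 and 10.91). CLDN4 read 9.78 and 9.23, across the limit between high and middle. CLDN8 read 3.82 and 3.69 and the endothelial claudin CLDN5 4.27 and 4.19.

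Integrins and basement membrane genes were high in 11 and middle in 6 of 17, and high in 6 with the mean of all probe sets. ITGB1, the beta chain shared by many integrins, read 12.51 and 12.91. ITGA6, which joins ITGB4 in hemidesmosomes, read 11.73 and 12.01. CD151, a tetraspanin bound to laminin-binding integrins, read 11.10 and 11.43. The laminin chain LAMB3 of the basement membrane read 10.58 and 11.45. The hemidesmosome linkers PLEC and DST read 11.02 and 10.97, and 11.03 and 10.72. ITGB8 was the lowest, at 6.49 and 6.97.

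Mesenchymal genes gave a mixed picture, with 1 of 16 high, 9 middle and 6 low. SNAI2, a repressor of E-cadherin that basal keratinocytes also make, read 10.62 and 10.74. VIM, the intermediate filament of mesenchymal cells, read 4.52 and 4.73. ZEB1 and ZEB2, repressors of epithelial genes, read 4.57 and 4.53, and 4.50 and 4.31. POSTN, a matrix protein, read 4.31 and 4.08. TWIST2 was middle in both arrays, at 8.83 and 8.93. CDH2, the N-cadherin, read 8.51 and 9.78, and TWIST1, another repressor of E-cadherin, read 7.74 and 8.89. Those were the only members at least 2-fold apart, both higher in untreated 2. They were 2 of the 10 past the low limit, beside 0.928% of all genes.

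Markers of cells that a culture of this line should not hold were low or middle. All 8 fibroblast markers were low, among them COL1A1 (6.02 in both arrays), DCN (4.86 and 4.54) and LUM (3.51 and 3.50). Of 9 leukocyte markers, 7 were low, and the pan-leukocyte gene PTPRC read 3.72 and 3.71. The middle ones were CD79A (7.07 and 6.93) and CD14 (7.03 and 6.17). Of 7 endothelial markers, 3 were middle, the highest being CDH5 at 7.54 and 7.79, and 4 low. Melanocyte, hepatocyte, erythroid and muscle markers had no high member among 16 genes, which lay between 3.90 and 8.35 in the single arrays. SERPINA1, a hepatocyte gene, was the only one 2-fold apart, at 7.23 and 8.35, beside 1.28% of all genes past the low limit. The 2 other probe sets of SERPINA1 had a median gap of -1.12. The middle signals lay below the brightest olfactory receptor gene, at 8.68. They lay above the 95th percentile of that group, 5.99, so they were brighter than most of it.

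The highest signals belonged to genes of translation, cytoskeleton, redox and energy metabolism. RPS2, of the small ribosomal subunit, read 14.95 in both arrays, RPL32 14.86 and 14.87, and RPLP1 14.62 and 14.69. Outside ribosomal proteins, and leaving out genes whose probe sets all end in _x_at, the mark for possible cross-hybridisation, CFL1 came first. It encodes the actin-severing protein cofilin and read 14.61 and 14.60. ND4, a mitochondrial subunit of respiratory complex I whose only probe set is marked as shared between transcripts, read 14.65 and 14.46, and EEF1A1, an elongation factor, read 14.46 and 14.63. TPT1 and the elongation factor subunit EEF1G lay at 14.44 to 14.45 and 14.14 to 14.15. SLC25A5, an ADP and ATP carrier of mitochondria, read 14.42 and 14.34. The iron store FTL read 14.20 and 14.42, the histone variant H2AZ1 14.35 and 14.25, and the glutathione transferase GSTP1 14.26 and 14.18. PPIA, LDHB and S100A2 completed the 12 highest, between 14.07 and 14.24. Several of these, such as EEF1A1 and TPT1, were read by probe sets that can bind near-identical copies, so their signals may be shared.

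Housekeeping complexes were high almost throughout. Of 72 cytosolic ribosomal protein genes, 68 were high, with a median of 14.15. The lowest, RPL27A (5.32 and 4.11), RPL3L (5.08 and 4.93) and RPL10L (5.91 and 5.79), were low; RPL3L and RPL10L are tissue-restricted copies. The respiratory chain and ATP synthase had 70 of 76 genes high and 6 low. COX6A1 led at 14.11 and 14.12, and the low ones included the copies COX7B2, COX8C and COX7A1, known from testis or muscle. The proteasome had 33 of 35 high, led by PSMB1 at 13.33 and 13.35. Its low members were the thymus subunit PSMB11 (4.66 and 4.41) and the testis subunit PSMA8 (3.91 and 3.72). All 22 chaperones were high. HSPA8, the constitutive HSP70, read 14.38 and 13.70, and HSP90AA1 13.66 and 13.48. Translation factors were high in 16 of 17.

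Among 24 glycolysis genes, 14 were high, 5 middle and 5 low. LDHA read 14.09 and 14.02, LDHB 14.13 and 14.18, and ALDOA 13.80 and 13.75. The germ cell or muscle forms LDHC, PGK2, PGAM2 and GAPDHS stayed between 3.99 and 4.55. Of 13 genes known to respond to low oxygen, 3 were high: the growth factor VEGFA (11.93 and 12.79), the glucose carrier SLC2A1 (11.41 and 11.19) and BNIP3 (10.56 and 10.35). That was near the share of all genes, 3627 of 18132. Cholesterol synthesis had 8 of 15 genes high and none low, with the squalene epoxidase SQLE first at 11.86 and 12.08. Targets of NRF2, the factor of the oxidative stress response, and aldo-keto reductases were high in 12 of 20. TXNRD1 read 13.49 and 13.63, NQO1 13.40 and 13.56, and the factor's own gene NFE2L2 12.35 and 12.77. The aldo-keto reductases AKR1B10 and AKR1C3 were middle, at 7.60 and 6.73, and 7.62 and 6.47.

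Genes of dividing cells were high. In mitosis, 24 of 26 were high and 2 middle. UBE2C, a ubiquitin carrier of the anaphase-promoting complex, read 12.45 and 12.23, and CDC20, its activator, 12.33 and 12.29. The proliferation marker MKI67 read 10.52 and 10.13. In DNA replication, 19 of 30 were high and 11 middle, led by the helicase subunit MCM7 at 12.67 and 12.56 and the sliding clamp PCNA at 12.61 and 12.33. None of these 56 genes was 2-fold apart between the arrays, beside only 1.28% of all genes past the low limit. Of 24 cell cycle regulators, 11 were high and none low. CCNB1 read 12.35 and 12.54, and CDK4 11.61 and 11.68. CCND1, the D cyclin of the G1 phase, read 12.38 and 11.88, and CCND2 11.78 and 12.29. CDKN2A, which encodes inhibitors of CDK4 and MDM2, read 11.86 and 12.10. CDKN2B, beside it in the genome, read 6.41 and 7.53, a difference above 2-fold. It was the only 1 of the 24 regulators 2-fold apart, beside 1.28% of all genes. Its other probe set past the limit had a gap of -0.75.

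Chromosome segments that are often gained or lost in head and neck carcinomas were followed by gene list, without any measure of copy number. In the segment around CCND1, 6 of 12 genes were high. CTTN, an actin-binding protein, read 13.71 and 13.73, PPFIA1 13.18 and 13.17, and the death receptor adaptor FADD 12.26 and 11.94. Its growth factor genes FGF3, FGF4 and FGF19 read 4.85 and 4.54, 6.36 and 6.41, and 6.43 and 7.03. On the long arm of chromosome 3, 9 of 11 genes were high, with ACTL6A (12.44 and 12.36) and ECT2 (11.97 and 12.08) first and SOX2 last. In the chromosome 18 list, which is often lost, 1 of 10 was high, 4 middle and 5 low. With the mean of all probe sets, 0 were high and 7 low. SMAD4, the shared mediator of TGF-beta signalling, read 8.95 and 8.84, and DCC 4.19 and 4.26. The SMAD4 values came from the brightest of its 7 probe sets, and none of the others passed the low limit.

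Growth factor pathways were covered by ligands and receptors. In the EGFR family, the receptors EGFR and ERBB2 read 10.63 and 10.56, and 8.91 and 8.97, and ERBB4 was low at 4.95 and 5.11. Ligands lay on both sides. EREG, epiregulin, read 11.85 in untreated 1 and 2.22-fold more in untreated 2, HBEGF 9.95 and 11.21, and NRG1 9.51 and 10.61. Each was at least 2-fold higher in untreated 2, which makes 3 of the 8 family genes past the low limit, beside 0.928% of all genes. TGFA read 9.01 and 9.79, and EGF itself was low at 4.05 and 3.66. For TGF-beta, the receptor TGFBR2 (10.21 and 10.75) and the mediators SMAD3 (10.31 and 10.49) and SMAD1 (10.11 and 10.13) were high, 9 of 17 genes were middle and 5 low. The 3 high genes of 17 were near the share of all genes, 3627 of 18132. The inhibitory SMAD7 read 5.22 and 5.70. In the Notch pathway, the ligands JAG1 (9.67 and 10.62) and JAG2 (9.84 and 9.66) were the 2 high genes of 14. The receptors NOTCH2 and NOTCH1 read 9.44 and 9.41, and 9.37 and 8.89, and HES1, a direct target, 9.41 and 9.74. NUMB, an inhibitor of Notch, was 2.19-fold higher in untreated 1 at 7.39 and 6.26. It was 1 of 10 Notch genes past the low limit, beside 0.349% of all genes. It had 1 probe set, and its untreated 2 value lay just at the limit.

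Secreted and surface proteins included some of the brightest genes. Of 19 S100 genes, which encode small calcium-binding proteins, 7 were high. S100A2 read 14.24 and 14.07, S100A10 13.49 and 13.35, and S100A14 12.72 and 12.39. Kallikreins, secreted serine proteases, were high in 3 of 15: KLK6 (12.53 and 12.77), KLK5 (11.29 and 11.52) and KLK10 (11.56 and 11.22). That was near the share of all genes, 3627 of 18132. KLK11 read 4.91 and 4.99 and KLK15 5.12 and 4.78. Matrix proteases and inhibitors were high in 10, middle in 15 and low in 10 of 35. The urokinase PLAU read 12.12 and 12.95, the membrane-bound MMP14 10.68 and 10.94, and the collagenases MMP13 and MMP1 10.68 and 10.05, and 10.26 and 10.14. Surface antigens were high in 12 of 24, with caveolin CAV1 at 13.88 and 13.76, tissue factor F3 at 13.42 and 14.13, and the transferrin receptor TFRC at 12.89 and 12.90. The receptor kinase AXL (10.55 and 11.83) and the nucleotidase NT5E (6.89 and 8.20) were the 2 members over 2-fold apart, both higher in untreated 2. They were 2 of the 22 past the low limit, beside 0.928% of all genes. In class I antigen presentation, 12 of 17 genes were high, none low and none 2-fold apart, beside only 1.28% of all genes. B2M, the light chain, read 13.92 and 13.79 and HLA-C 13.09 and 13.25; probe sets of HLA genes can bind their relatives.

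Gene families grouped by the stem of their symbols, with at least 20 genes each, lay at different levels. Mitochondrial ribosomal proteins were high in 24 of 27 genes of the small and 44 of 48 of the large subunit stem. Zinc finger genes with the stem ZNF were high in 22, middle in 269 and low in 200 of 491. Solute carriers of the stem SLC were high in 44, middle in 172 and low in 153 of 369. The low shares, 40.7% for ZNF and 41.5% for SLC, were near that of all genes, 7253 of 18132. At the low end, 24 of 26 taste receptors, 24 of 25 beta-defensins and 129 of 151 long noncoding RNAs of the stem LINC were low. No cytochrome P450 gene of 52 and no FGF gene of 23 was high.

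Differences between the arrays were small for most genes. Over the 10879 genes at or above the low limit, Pearson's r was 0.983, and over all genes 0.993, as a description across genes that are not independent. The median size of the gap was 0.18, and 63.8% of genes lay within 0.25. At least 2-fold apart were 139 genes, or 1.28%. Of these, 38 (0.349%) were higher in untreated 1 and 101 (0.928%) higher in untreated 2. At least 3-fold apart were 25, and at least 4-fold 5. Genes higher in untreated 1 were mostly of middle signal, 35 of 38, and those higher in untreated 2 were high in 37 and middle in 64. Of the 139, 81 had another probe set past the limit, and in 80 its median gap had the same sign, against 73.8% of all such genes. The exception was IGFBP7, chosen for naming after its values were seen, at 9.38 and 11.01 but a median gap of 0.27 in its other probe sets. In RNA from whole cultures, fewer cells of a kind and less RNA per cell cannot be told apart.

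**Figure D3:**
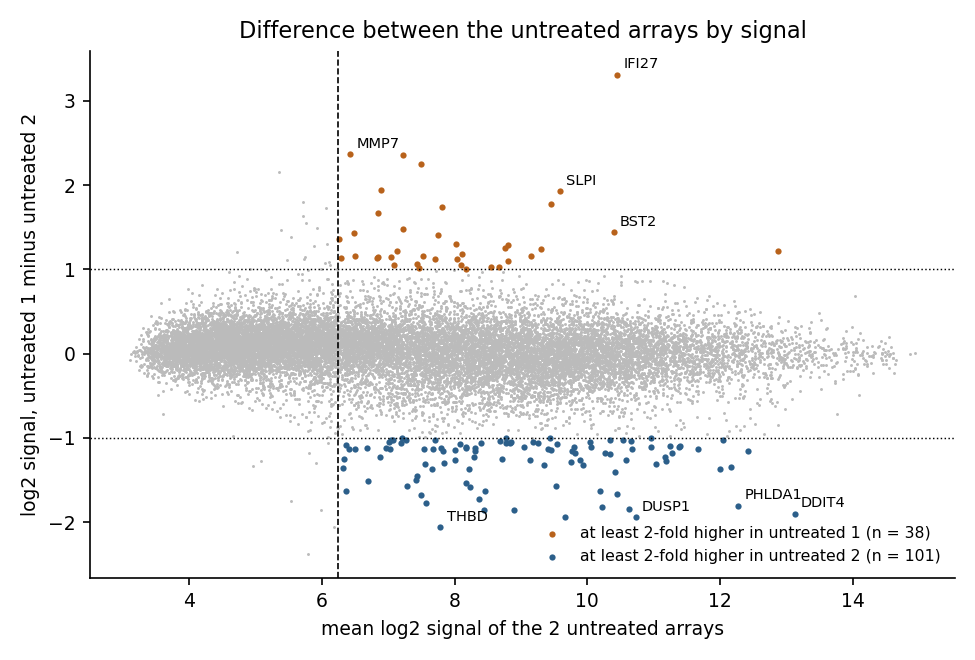
Log2 signal of untreated 1 minus untreated 2 (y axis) by mean log2 signal (x axis), 1 point per gene; the dashed line is the low limit of 6.25 and the dotted lines mark 2-fold. The 38 coloured points above and 101 below are the genes at least 2-fold apart, with IFI27 at 3.31 farthest from 0.

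The gene farthest apart was IFI27, an interferon-induced mitochondrial protein, at 12.11 and 8.80, which is 9.92-fold, and 2.84 on the log2 scale by its other probe set. Next in that direction came MMP7, a matrix protease of glandular epithelia, at 7.61 and 5.24. The protease inhibitor PI3 read 8.40 and 6.04, and the calcium-binding S100A9 8.62 and 6.37. The immediate early factor EGR3 read 7.86 and 5.92, but with the mean of all its probe sets the gap was 0.53. SPDYE2B, of a family of near-identical copies, read 7.96 and 6.48, with a gap of 0.75 by the mean of its probe sets, and the cytokine IL36G 7.20 and 5.76. TNFSF10, the death ligand TRAIL, read 9.46 and 8.16, and FAM111B, a protease gene, 8.59 and 7.46. Both were repeated by their other probe sets, at 1.24 and 1.21. MMP7, PI3, EGR3 and IL36G passed the low limit on their means only through untreated 1.

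In the other direction, THBD, the thrombomodulin of cell surfaces, read 6.75 and 8.81, a 4.16-fold difference from its only probe set past the limit. Its values crossed from near the low limit to well within the middle band. TXNIP, an inhibitor of thioredoxin and of glucose uptake, read 9.72 and 11.55, and its 4 other probe sets had the same sign. TSC22D3, a glucocorticoid-induced regulator, read 7.97 and 9.82. PHLDA1, an early response gene, read 11.38 and 13.18. FAM107B read 7.51 and 9.23, the guanine deaminase GDA 6.69 and 8.46, and DLC1 6.65 and 8.33. All 6 had other probe sets with the same sign.

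Interferon-stimulated genes are switched on by secreted interferons through STAT and IRF9 complexes and encode antiviral proteins. Of 35 such genes, 13 were high, 21 middle and 1 low; by untreated 2 alone, 10 were high and 4 low. ISG15, a ubiquitin-like modifier, read 12.32 and 12.32. The membrane proteins IFITM3 and IFITM1, which hinder virus entry, read 12.45 and 12.35, and 11.98 and 12.08. OASL, a relative of the oligoadenylate synthetases, read 11.57 and 11.58. These bright members hardly differed between the arrays, while others did. Of 34 past the low limit, 27 were higher in untreated 1, against 51.8% of all genes, and the median gap was 0.44. At least 2-fold higher in untreated 1 were 5 of the 34, against 0.349% of all genes, and none was 2-fold higher in untreated 2. Beside IFI27 they were BST2 (11.12 and 9.68), which tethers virus particles to the cell, the antiviral GTPase MX1 (7.67 in untreated 1 and under the low limit in untreated 2), IFI44L (6.93 and 5.58) and IRF9 (9.73 and 8.57), the last named because it completed the 5. MX1 and IFI44L passed the limit on their mean only through untreated 1, and 3 of 31 remained where both arrays had to reach it, against 0.282% of all genes. With the mean of all probe sets the gap of BST2 was 0.99. MX2 was the low member, at 5.32 and 4.76. Other probe sets had the same sign in 13 of 15 genes. The background probe sets rich in G and C also read higher in untreated 1, by 0.16 to 0.33, and their part in the result was not tested.

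The interferon-stimulated response element is the DNA motif bound by STAT and IRF complexes. Its core was searched on both strands as GAAANNGAAA in the 250 bases before the annotated start, from RefSeq on GRCh38.p14, after the gaps had been seen. A match was found in 17 of 28 interferon-stimulated promoters in the table (60.7%), against 3.07% of all 27195 promoters and 2.24% of the genes past the limit. Matches may overlap each other. The following show 2 genes with a large gap and 1 without, 160 bases each in the direction of the gene, with matches in capitals: IFI27 on the plus strand of chr14:94110576-94110735, BST2 on the minus strand of chr19:17405631-17405790 and ISG15 on the plus strand of chr1:1013337-1013496.
IFI27: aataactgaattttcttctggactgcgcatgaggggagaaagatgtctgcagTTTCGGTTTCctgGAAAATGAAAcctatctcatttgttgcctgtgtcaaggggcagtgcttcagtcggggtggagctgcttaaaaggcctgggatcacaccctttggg
BST2: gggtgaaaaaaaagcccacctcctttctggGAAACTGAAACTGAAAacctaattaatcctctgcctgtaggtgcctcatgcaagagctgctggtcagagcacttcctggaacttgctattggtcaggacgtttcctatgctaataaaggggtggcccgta
ISG15: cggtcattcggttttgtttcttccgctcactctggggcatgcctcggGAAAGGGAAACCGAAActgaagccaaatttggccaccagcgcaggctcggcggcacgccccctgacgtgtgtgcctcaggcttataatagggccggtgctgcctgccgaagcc
Matches begin 108 and 95 bases before the start in IFI27, 130 and 124 in BST2, and 113 and 107 in ISG15. Both matches of BST2 and of ISG15 lie on the strand of the gene and overlap, while IFI27 has 1 on each strand, apart from each other. The gaps were 3.31 in IFI27 and 1.44 in BST2, and ISG15 read 12.32 in both arrays. Over the list, the 17 genes with a match had a median gap of 0.43 and the 11 without one 0.64. A match describes letters in a sequence and not binding in these cells.

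Mucosal defence genes and mucins were low in 20 of 27, and the 7 past the limit were all higher in untreated 1. SLPI, an inhibitor of neutrophil elastase, read 10.55 and 8.63, LCN2, which binds bacterial iron carriers, 10.34 and 8.56. With PI3 and S100A9 these were the 4 at least 2-fold higher in untreated 1, beside 0.349% of all genes. PI3 passed the limit only through untreated 1, and so did a member less than 2-fold apart. Where both arrays had to reach the limit, 3 of 5 were at least 2-fold higher in untreated 1, beside 0.282% of all genes. WFDC2 and the mucin MUC1 differed little, at 8.49 and 8.24, and 8.11 and 7.92. The median gap of 1.78 rests on few genes, of which 2 had another probe set past the limit, with a median gap of 0.36. Without the limit, the median over all 27 was 0.20. S100A8 and S100A7, whose means were below the limit, read 6.53 and 4.89, and 6.93 and 5.20. S100A8, S100A9 and LCN2 are also made by neutrophils; the leukocyte markers had medians of 5.31 and 5.22, with PTPRC at 3.72 and 3.71. The 2 leukocyte markers past the limit, CD14 (7.03 and 6.17) and CD79A (7.07 and 6.93), were higher in untreated 1 too, with a median gap of 0.50. CD14 passed the limit only through untreated 1. CD79A, the 1 marker left where both arrays had to reach it, had a gap of 0.14. Their part in the result was not tested. KRT4 and SLPI both belong to mucosal surfaces, and the upper-layer genes TGM1 and RHCG read 7.18 and 6.69, and 6.83 and 6.26, gaps under 2-fold.

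**Figure D4:**
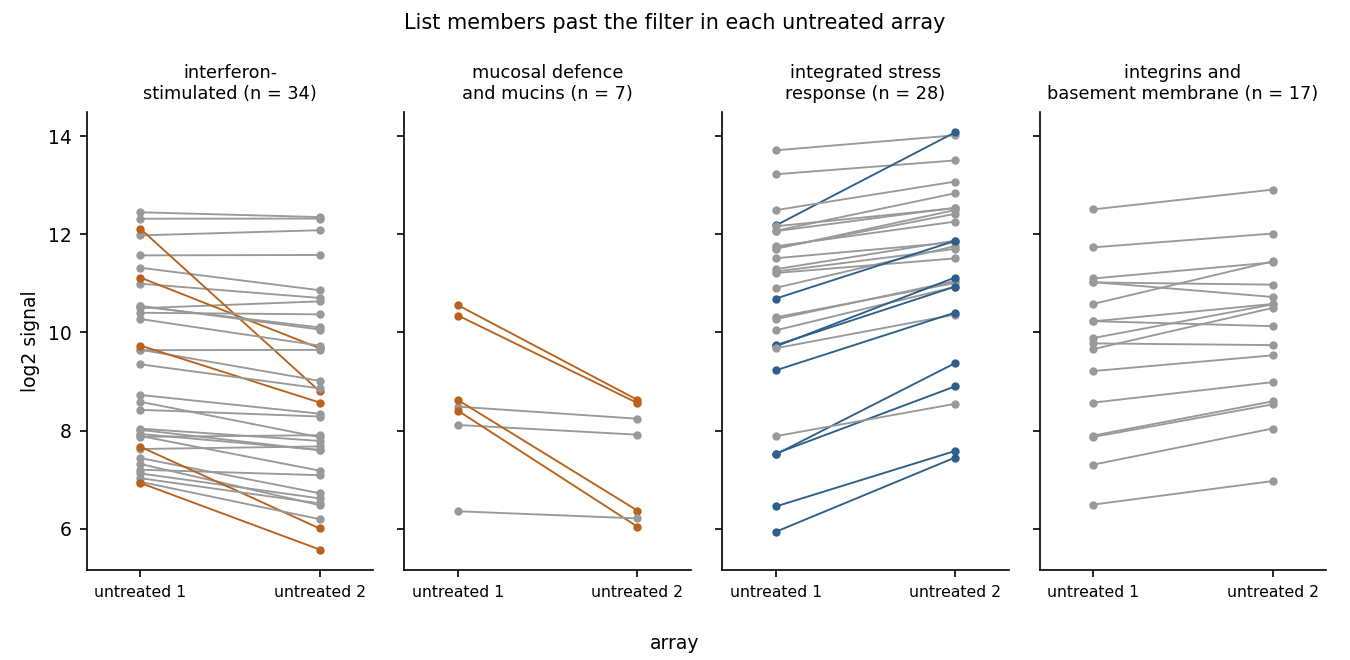
Log2 signal (y axis) in each untreated array (x axis) of the members past the low limit in 4 gene lists, 1 line per gene; orange lines are at least 2-fold higher in untreated 1, blue lines at least 2-fold higher in untreated 2. All 28 lines of the integrated stress response rise towards untreated 2, and all 7 of mucosal defence fall.

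The integrated stress response is the programme of the factor ATF4, made when amino acids are short or proteins misfold, and its targets supply amino acids and charged tRNAs. Of 29 genes, 23 were high, 5 middle and 1 low. Every one of the 28 past the limit was higher in untreated 2, with a median gap of -0.73, against 0.01 for all genes. At least 2-fold higher in untreated 2 were 9 of the 28, beside 0.928% of all genes. The list was chosen with earlier results of these data known, so these counts are a description only. Where both arrays had to reach the limit, 8 of 27 remained, beside 0.875% of all genes. ATF4 itself read 13.71 and 14.02. Among its partners and targets, DDIT4, an inhibitor of mTORC1, read 12.18 and 14.08, a 3.72-fold difference. DDIT3, the factor CHOP, read 7.51 and 9.37. STC2, a secreted glycoprotein, read 9.71 and 11.12. ULBP1, a ligand of natural killer cells, read 5.94 and 7.45 and passed the limit on its mean only through untreated 2. The asparagine synthetase ASNS read 12.49 and 13.07, the amino acid carrier subunits SLC3A2 and SLC7A5 12.07 and 12.84, and 12.16 and 12.53. MTHFD2, of mitochondrial folate metabolism, had the smallest gap past the limit at 13.22 and 13.50. NUPR1, just below the limit, read 6.20 and 6.28. Other probe sets had the same sign in 19 of 19 genes. The gaps of the 28 ran from -1.90 to -0.28.

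ATF4 binds, with C/EBP proteins, a composite motif of which TGATGNAA was searched on both strands, again in the 250 bases before the start and after the gaps had been seen. It was found in 4 of 25 promoters of the list (16.0%), namely AARS1, ASNS, ATF3 and CHAC1, against 3.18% of all promoters and 1.39% of genes past the limit. The 2 shown, with the match in capitals, are ASNS, whose element is a known site of amino acid control, on the minus strand of chr7:97872409-97872568, and CHAC1, the member with a match and at least a 2-fold gap, on the plus strand of chr15:40953221-40953380.
ASNS: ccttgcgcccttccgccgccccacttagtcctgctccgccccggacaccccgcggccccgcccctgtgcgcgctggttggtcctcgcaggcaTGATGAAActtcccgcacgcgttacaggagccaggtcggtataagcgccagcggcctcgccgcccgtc
CHAC1: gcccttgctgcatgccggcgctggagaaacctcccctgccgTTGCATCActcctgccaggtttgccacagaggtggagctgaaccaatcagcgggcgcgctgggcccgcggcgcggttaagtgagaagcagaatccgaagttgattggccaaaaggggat
The match begins 68 bases before the start in ASNS and 209 in CHAC1, where it lies on the opposite strand. CHAC1, a glutathione-degrading enzyme named here for its match, read 9.23 and 10.40. The 4 genes with a match had a median gap of -0.79 and the 21 without one -0.78. The promoters of DDIT3 and TRIB3 held no match in this window.

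Chaperones and folding enzymes of the endoplasmic reticulum, which answer to misfolded proteins there, showed a smaller gap. Of 19 past the limit, 16 were higher in untreated 2, against 5239 of all 10879 genes, with a median of -0.25. XBP1, a factor of that response, read 10.82 and 11.94 and was the only member 2-fold apart, beside 1.28% of all genes. The chaperone HSPA5 read 13.36 and 13.63. HERPUD1 read 10.66 and 11.39. Cytosolic chaperones did not share this direction, with 12 of 22 higher in untreated 1 and a median gap of 0.04.

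Cytokines and other targets of NF-kB, a factor of inflammation, were high in 11, middle in 11 and low in 5 of 27. The brightest were IL1A (12.66 and 13.31), CXCL8 (12.48 and 13.04), a chemokine for neutrophils, and IL1B (11.62 and 12.60). Of 22 past the limit, 16 were higher in untreated 2, against 5239 of all 10879 genes, with a median gap of -0.52. At least 2-fold higher there were 6, beside 0.928% of all genes, and 1 in untreated 1, beside 0.349%. IL24 read 8.70 and 10.64, LIF 9.32 and 11.13, CXCL3 7.64 and 9.27, and CCL20 10.85 and 11.95. IL36G went the other way, but passed the limit on its mean only through untreated 1. Where both arrays had to reach the limit, 6 of 21 were at least 2-fold higher in untreated 2, beside 0.875% of all genes, and 0 in untreated 1. The interferon-induced chemokines CXCL10 and CXCL11 were low, at 4.45 and 4.39, and 3.96 and 4.03. Immediate early genes, which respond to growth signals within minutes, were high in 15 of 20. Of the 20, 14 were higher in untreated 2, against 5239 of all 10879 genes, with a median gap of -0.42. JUN read 12.08 and 12.61 and IER3 11.80 and 12.67. DUSP1, a phosphatase that shuts off MAP kinases, read 9.76 and 11.70, and DUSP6, of the same family, 10.45 and 11.46. EGR1 and EGR3 were higher in untreated 1, EGR1 at 12.53 and 11.91.

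Integrins and basement membrane genes differed mostly in 1 direction. Of the 17, 13 were higher in untreated 2, against 5239 of all 10879 genes past the limit. None of the 17 was 2-fold apart, beside only 1.28% of all genes. The median gap was -0.40, and -0.29 in their other probe sets. LAMB3 and LAMB1 had the largest gaps, -0.87 and -0.84, and LAMB1 read 9.66 and 10.50. ITGA5, the fibronectin receptor chain, read 7.31 and 8.04 and ITGB5 7.90 and 8.60. Other probe sets had the same sign in 12 of 12 genes. Desmosome and adherens junction genes had no such tilt, with 8 of 18 higher in untreated 1 and a median gap of -0.05, though 0.20 in their other probe sets.

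**Figure D5:**
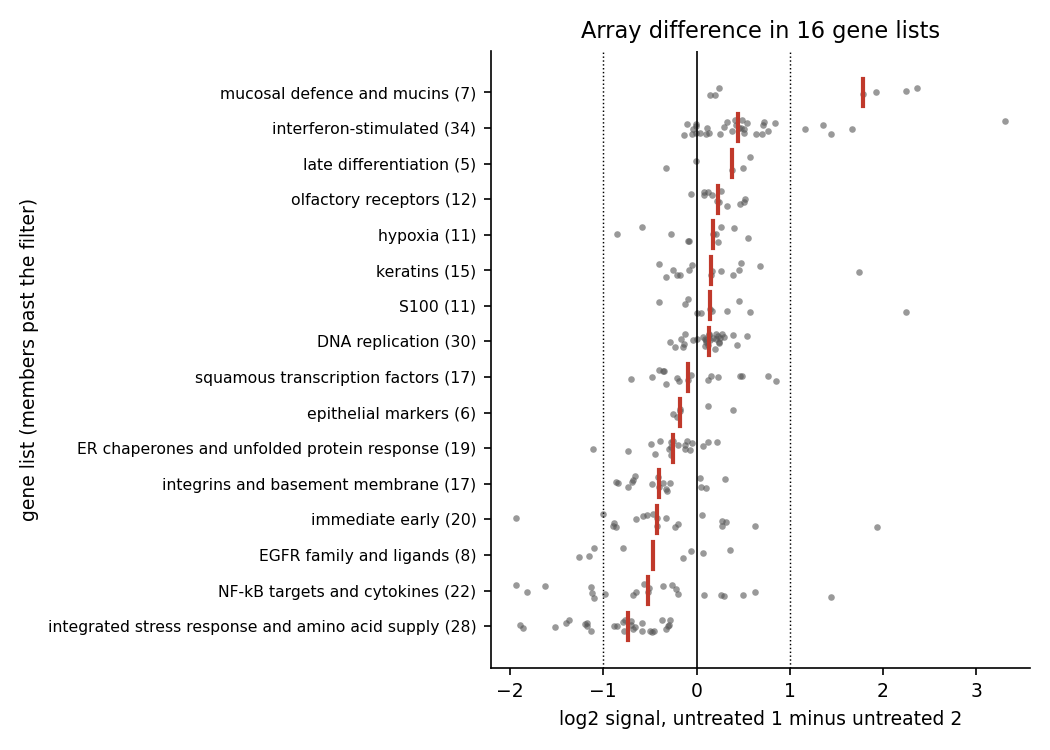
Log2 signal of untreated 1 minus untreated 2 (x axis) of the members past the low limit in 16 gene lists (y axis, members in brackets), the 8 with the lowest and the 8 with the highest medians; red bars are medians and dotted lines mark 2-fold. Medians run from -0.73 in the integrated stress response to 1.78 in mucosal defence.

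Most other lists differed by less. Of 40 lists with at least 5 members past the limit, 8 had a median gap of 0.25 or more in size, and the endoplasmic reticulum list lay just under that. Ribosomal proteins had a median gap of -0.01, glycolysis -0.01, mitosis 0.04 and class I presentation -0.04. Over all genes past the limit, 51.8% were higher in untreated 1. Respiratory chain genes were higher there in 54 of 70, with a median of 0.11. DNA replication genes were so in 23 of 30, with a median of 0.14. No member of either list was 2-fold apart, beside only 1.28% of all genes. The 12 olfactory receptor genes past the limit were higher in untreated 1 in 11, with a median of 0.23, so a tilt of that size was also present in genes of the background.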

How the data were processed

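The deposited values were used as the authors gave them: log2 signals per probe set, made with Affymetrix Expression Console per the submitters' processing notes, after 100 ng of RNA had been amplified and labelled with biotin per the labels' protocols. How they were summarised and normalised was not given in the sources used here. Their log2 scale was taken from the range of the values. Probe sets were named through the platform annotation and RefSeq. Beside the controls, 1832 probe sets that named several genes and 2473 that named none were left out. A fold is 2 to the power of a gap. The 48 gene lists, the limits and the members were chosen with earlier results of these data known. Genes were named by rank: the 12 highest, the 12 largest gaps and the 8 repeated by other probe sets in each direction (6 in untreated 1), the markers, and per list up to 6 highest, 4 lowest and 4 largest gaps. Genes whose probe sets all cross-hybridise took no place in the first 2 ranks. AARS1, ATF3, CHAC1, TRIB3, IRF9 and IGFBP7 were chosen after their values were seen. Counting was tested on simulated arrays whose planted gaps were well above 2-fold and whose noise was below that between these arrays. Calls near 2-fold were therefore not tested. Python 3.11.15, pandas 2.3.3, numpy 2.4.6 and statsmodels 0.14.6 were used. Alternatives covered probe set choice, scaling, limits, folds and leaving out an array. The number of arrays limits the precision.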

Additional observations from a re-analysis of the deposited data

How the results depend on the processing

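The count of 139 genes at least 2-fold apart stayed between 98 and 168 with a common median, quantile normalisation, a loess fit removed, the mean of all probe sets, without shared probe sets, without a limit, and with the limit at the olfactory receptors' 95th percentile. The share higher in untreated 2 lay between 65.5% and 77.1% in these. With the limit at the 60th percentile 87 remained of fewer genes tested, at 1.5-fold there were 740 and at 3-fold 25. The mean of all probe sets gave 98, of which 77 were among the 139. With both arrays required to reach the limit, a setting added after the data were seen, 123 were left, 16 having passed through 1 array. Of 1328 list genes, 498 were high, 490 to 499 when either array was left out, 470 with the mean of all probe sets and 383 with the limits at the 90th and 50th percentiles. Of 384 high and low counts of single lists under these settings, 39 moved by over 1.5 times. With the stricter limits, mitosis had 12 high genes for 24, the EGFR family 1 for 4, TGF-beta 0 for 3 and matrix proteases 1 for 10. With the mean of all probe sets, the EGFR family had 2 and TGF-beta 1. Of 40 lists, 8 had a median gap of at least 0.25, and 5 without the limit, where dim genes enter. A check with the genes' other probe sets, also added then, gave 9, in which mesenchymal (-0.61, 4 genes) and cholesterol synthesis genes (-0.32) entered and late differentiation had no value. Keratins turned from 0.16 to -0.12 (4 genes) and desmosomes from -0.05 to 0.20. No list median of at least 0.25 changed sign in these settings, nor did any gap of the 26 genes named for being largest or repeated. Of those, 23 stayed 2-fold with the mean of all probe sets, and EGR3 (0.53), SPDYE2B (0.75) and BST2 (0.99) did not. A gap could not be computed without either array.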

Other observations

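Of the 139 genes at least 2-fold apart, 93 belonged to no list. The genes in this paragraph were chosen after their values were seen. Beside TXNIP, its relatives of the arrestin family ARRDC4 (8.25 and 9.31) and ARRDC3 (7.61 and 8.72) were higher in untreated 2. So were 3 genes that take part in amino acid or energy metabolism, namely PCK2 (8.72 and 9.79), ASS1 (10.14 and 11.18) and the cysteinyl-tRNA synthetase CARS1 (9.52 and 10.56). The secreted proteins GDF15 (11.32 and 12.69) and FST (10.55 and 11.78) and the factor CEBPD (10.69 and 11.79) lay high in both arrays and differed the same way. In the other direction, the mitochondrial gene ND1 read 13.48 and 12.27, while ND4, of the same genome, read 14.65 and 14.46. IL1RN, which blocks the IL-1 receptor, read 7.62 and 6.56, opposite in direction to IL1A and IL1B. SAMHD1, an antiviral enzyme outside the interferon list, read 8.62 and 7.57.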
